A study of Homo sapiens with 6 samples.

Results

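The 59 genes described here are the measured members of 2 signalling pathways, 41 of Wnt and 18 of Notch, among 19775 genes that had a probe set of their own on the array. They were taken by gene name. On the Wnt side these are the WNT ligands, the Frizzled (FZD) receptors with the co-receptors LRP5 and LRP6, the secreted DKK and SFRP inhibitors, LGR4, LGR5, RNF43, LEF1 and AXIN2. On the Notch side they are the Delta (DLL) and Jagged (JAG) ligands, the NOTCH receptors and the HES and HEY repressors. Of 64 gene names covered, 5 (WNT3, WNT3A, FZD8, TCF7 and HES3) had no probe set annotated to them alone and were not analysed here. Each gene was read by 1 probe set, a group of short probes against 1 transcript, namely the one with the highest mean over the 6 arrays. All levels are log2 expression values, and every log2 fold change is the mean of the arrays labelled SCGB3A1 minus the mean of control.

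Wnt proteins are secreted ligands that bind Frizzled receptors together with LRP5 or LRP6. In the canonical branch this stops a destruction complex built on AXIN proteins from degrading beta-catenin, which then joins TCF and LEF factors on DNA, and other Wnt ligands act on cell shape and movement without beta-catenin. Notch receptors are bound by Delta or Jagged ligands on a neighbouring cell, are cut by proteases, and release an intracellular domain that acts with the DNA-binding protein RBPJ to switch on HES and HEY repressors. Both pathways are known for maintaining stem and progenitor cells of the mammary gland, and they are commonly studied in breast cancer cells grown as spheres.

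Gene expression was measured in SUM159, an established human breast cancer cell line, to ask how it responds to SCGB3A1, a small secreted protein of the secretoglobin family. Control cells were transduced with an empty pLVX-puro lentiviral vector and the other group with the same vector carrying human SCGB3A1, with 3 arrays in each group. Both groups were selected in puromycin (2 µg/ml for 7 days), with no cloning stated, so both carry the resistance cassette, and both were then kept for 5 days as oncospheres, floating clusters that form on ultra-low attachment plastic, after seeding at 12500 cells/ml. The arrays are named biological replicates, but separate transductions are not stated, so the p-values cover only the spread among these 6 samples, which may be technical.

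SCGB3A1 itself read 6.80, 6.89 and 7.05 in control and 6.60, 6.92 and 6.71 in the other group, so the groups overlapped and the gene was not higher in the group named for it (log2 fold change -0.17 ± 0.096 SE; limma, adjusted p = 0.835). Arrays of this kind read the 3′ end of transcripts, and no source here tells if the probe set matches the insert. The reading may therefore be no check of the labels, and every direction below holds for the arrays labelled SCGB3A1. The paper states that expression of the introduced genes was checked by quantitative PCR after selection, SUM159 cells included. It does not name these array samples there. Array medians lay between 6.917 and 6.925 after the normalization. The second control replicate was the least like the rest, with correlations of 0.989 to 0.993 with the other arrays. Among markers of a mesenchymal-like breast cancer cell, all 6 (VIM, CD44, ZEB1, FN1, SNAI2 and AXL) read above the median of all probe sets (6.91). Of 9 epithelial markers EPCAM, CDH1, KRT19, CLDN4 and FOXA1 read at or below it. The other 4 read above it, namely KRT18 (11.48), KRT8 (10.85), GATA3 (8.11) and ESR1 (7.07). Of 6 basal mammary markers 4 were analysed, and their mean level was 10.43 to 10.55 in control and 10.61 to 10.79 in the arrays labelled SCGB3A1, with a log2 fold change of 0.56 for KRT5 and for KRT14 (limma, adjusted p = 0.166 and 0.29), -0.24 for EGFR (limma, adjusted p = 0.759, wholly below control) and -0.051 for ITGA6. The mean of the 6 mesenchymal-like markers was 12.29 to 12.38 in control and 12.20 to 12.24 in the other group. All 6 were negative, the lowest ZEB1 at -0.25 (limma, adjusted p = 0.717, wholly below control). The mean of 4 fibroblast markers was 11.69 to 11.75 in control and 11.78 to 11.80 in the other group. It hid DCN at 0.40 (limma, adjusted p = 0.317, wholly above) and COL1A1 at -0.21 (limma, adjusted p = 0.782, wholly below). COL3A1 and PDGFRA gave 0.058 and 0.033. Haematopoietic, endothelial and neural marker means stayed between 6.75 and 7.21 in every array. Of the 4 markers analysed in each list, 2, 3 and 2 read at or below the median of all probe sets. Above it read PTPRC (7.75), CD3E (7.09), PECAM1 (8.27), RBFOX3 (6.96) and SNAP25 (8.51). CD3E and LYZ lay wholly above control, at 0.13 and 0.16 (limma, adjusted p = 0.831 and 0.819). The part of these marker differences in the results below was not tested. In bulk samples of 1 cell line, a lower share of cells with a transcript and less of it per cell cannot be told apart.

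No member of either pathway passed an adjusted p of 0.05 in limma, where 6 of all 19775 genes (0.0303%) did, and the lowest adjusted p of a member was 0.555, for HES7. The largest differences were those of JAG2 (0.28) and HEYL (0.26) upwards and of HES7 (-0.29), WNT9A (-0.25) and DKK1 (-0.24) downwards. At an unadjusted limma p under 0.05 there were 6 members, or 10.2%, against 6.82% of all genes. Of these, 2 were higher in the arrays labelled SCGB3A1 (JAG2 and HEYL; background 3.93%) and 4 were lower (WNT1, WNT5A, DKK1 and HES7; background 2.89%). In 7 members all 3 arrays labelled SCGB3A1 lay above all 3 controls (WNT10A, JAG2, NOTCH3, HES1, HES4, HEY1 and HEYL), where 7.09% of all genes did so. In 5 members they lay below all controls (WNT1, WNT2B, WNT5A, DKK1 and HES7), where 5.24% of all genes did so. These shares of 59 genes are small counts, and nothing particular to the members is read from them.

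The pathways leaned differently in their medians, which are given as a description. The median log2 fold change was 0.009 over the Wnt members and 0.073 over the Notch members, beside 0.011 over all genes. The Notch median was 0.0406 when the probe sets of each gene were averaged and 0.0275 over the 11 members left without probe sets open to cross-hybridization. A positive sign was seen in 26 of 41 Wnt members and in 14 of 18 Notch members (77.8%), and in 54.3% of all genes. Of the 7 members whose arrays lay wholly above control 6 were Notch genes, and of the 5 wholly below 4 were Wnt genes. Wnt genes make up 41 of the 59 members, and over all genes 7.09% lay wholly above and 5.24% wholly below. As above, nothing particular to the pathways is read from these small counts. The 95% intervals of all 59 members lay between -0.55 (the lower end for WNT9A) and 0.45 (the upper end for JAG2), so none reached a log2 difference of 1 in either direction.

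**Figure D1:**
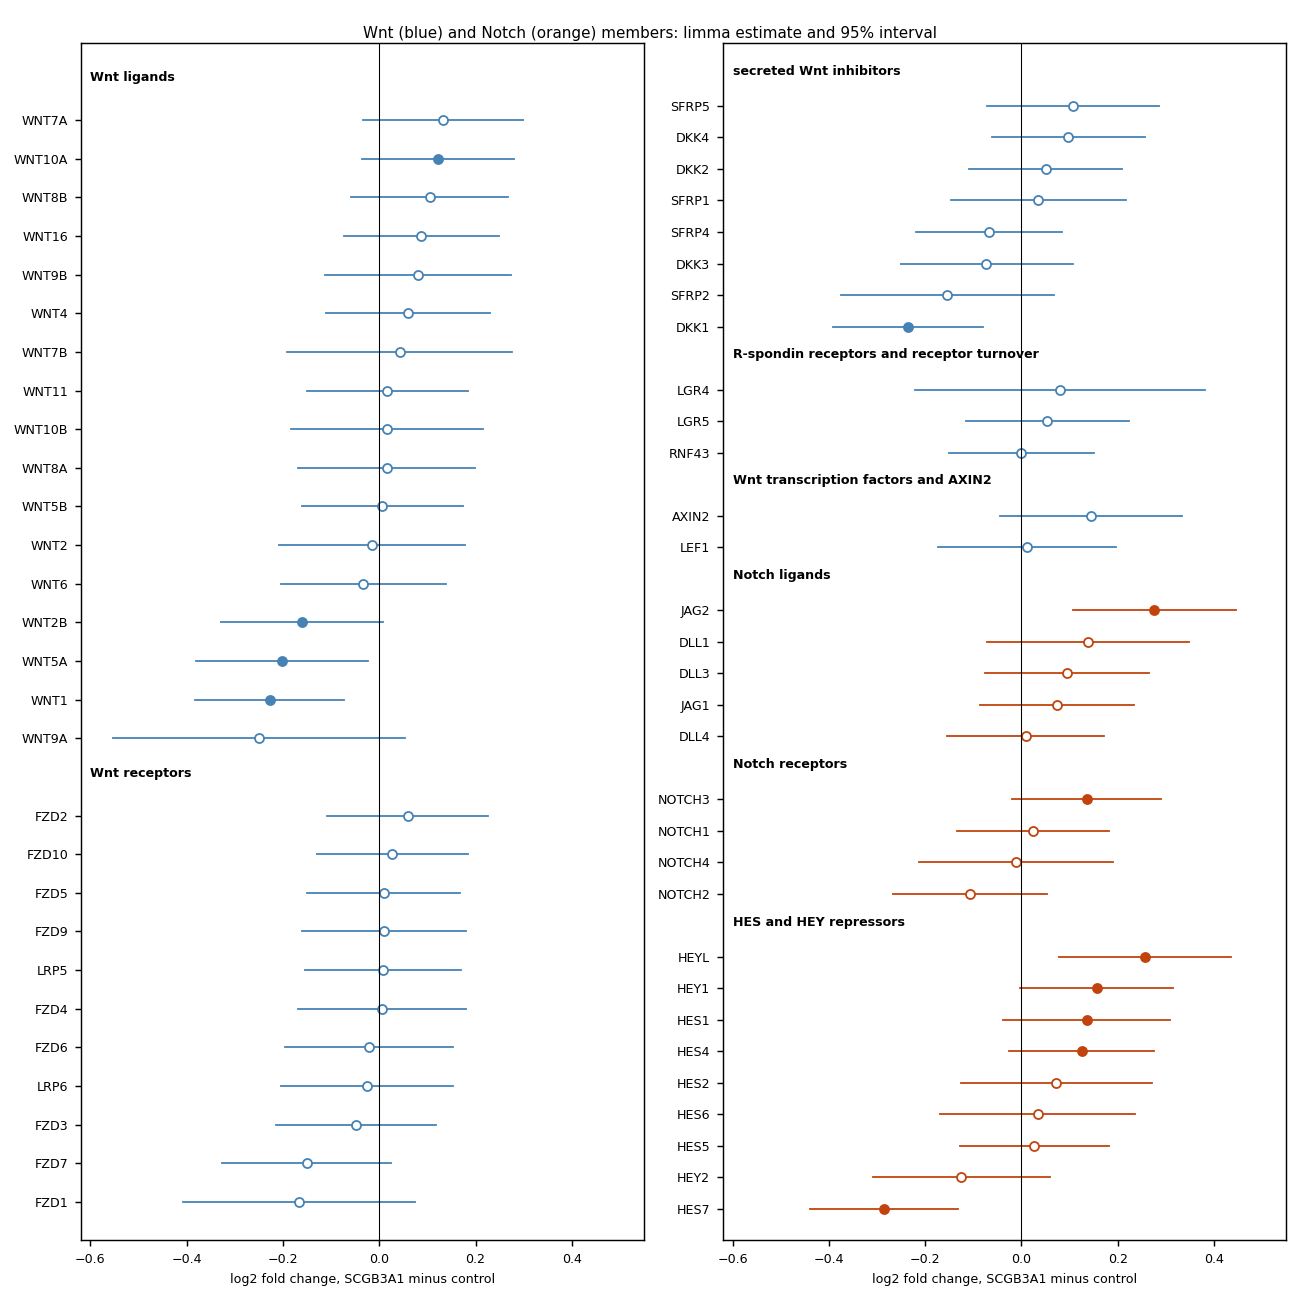
Log2 fold change (arrays labelled SCGB3A1 minus control, n = 3 each) of all 59 members by role, with Wnt genes in blue and Notch genes in orange. Points are limma estimates, bars their 95% intervals, and filled points mark the 12 members whose groups did not overlap. The estimates span -0.29 (HES7) to 0.28 (JAG2).

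Of the 17 Wnt ligands, 11 had a positive and 6 a negative log2 fold change, from -0.25 to 0.13, with a median of 0.017. The probe set of WNT5A, a ligand that mostly signals without beta-catenin, read 11.00, 11.19 and 10.98 in control and 10.80, 10.81 and 10.95 in the arrays labelled SCGB3A1. The groups did not overlap, but the highest array labelled SCGB3A1 lay just under the lowest control. The difference was -0.20 ± 0.082 (SE; limma, adjusted p = 0.784, 95% interval -0.38 to -0.023). Its second probe set gave -0.28 ± 0.12 with overlapping groups. WNT5A no longer had an unadjusted limma p under 0.05 when control replicate 2 was left out (-0.14), nor when replicate 1 or replicate 2 labelled SCGB3A1 was (-0.18 each).

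WNT1, a canonical ligand first known as a mammary oncogene of mice, read 6.40, 6.50 and 6.38 in control and 6.22, 6.20 and 6.17 in the other group. All 6 values are under the median of all probe sets, in the range where this normalization compresses differences. The log2 fold change was -0.23 ± 0.071 (SE; limma, adjusted p = 0.717). WNT2B, another canonical ligand, was also dim, at 6.68, 6.69 and 6.74 in control and 6.61, 6.60 and 6.42 in the arrays labelled SCGB3A1 (-0.16 ± 0.078 SE; limma, adjusted p = 0.817). Its 4 probe sets spanned -0.16 to 0.060, so they did not share a sign.

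WNT10A, a canonical ligand of skin, tooth and gland development, was the only Wnt ligand wholly above control. It read 8.26, 8.22 and 8.23 in control and 8.30, 8.33 and 8.44 in the arrays labelled SCGB3A1, a difference of 0.12 ± 0.072 (SE; limma, adjusted p = 0.842) that rested most on replicate 3. The second WNT10A probe set gave 0.004. WNT11, which like WNT5A acts largely outside the beta-catenin branch, read 8.47, 8.64 and 8.53 against 8.63, 8.49 and 8.57, with overlapping groups and a difference of 0.017 ± 0.077 (SE). WNT9A, picked out after its values were seen, owed its -0.25 mostly to 1 array: control replicate 2 read 7.90 while the other controls read 7.22 and 7.33 and the arrays labelled SCGB3A1 read 7.21, 7.19 and 7.31. Without control replicate 2 the difference of WNT9A was -0.041.

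The log2 fold changes of the 11 Wnt receptors ran from -0.17 to 0.059 (6 positive and 5 negative, median 0.006), the groups overlapped in every one of them, and 0 passed an unadjusted limma p of 0.05. FZD6, a Frizzled tied to planar cell polarity, read 11.06, 11.02 and 11.13 in control and 10.92, 11.15 and 11.07 in the arrays labelled SCGB3A1 (-0.021 ± 0.080 SE). FZD7, a receptor found on stem cells of several epithelia, read 9.66, 9.72 and 9.48 against 9.49, 9.41 and 9.51 (-0.15 ± 0.081 SE; limma, adjusted p = 0.829), and both of its probe sets had a negative sign. The arrays of FZD7 overlapped only through control replicate 3. FZD1 read 8.41, 8.76 and 8.26 in control and 8.35, 8.36 and 8.22 in the other group (-0.17 ± 0.11 SE), and this became -0.025 without control replicate 2, the highest array. The co-receptors LRP5 and LRP6 gave 0.008 ± 0.075 and -0.026 ± 0.082 (SE).

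Secreted inhibitors hold Wnt signalling back outside the cell: DKK proteins such as DKK1 bind LRP5 and LRP6, and SFRP proteins bind the ligands. Of the 8 inhibitors 4 were positive and 4 negative, from -0.24 to 0.11. DKK1, which is itself switched on by beta-catenin in many cells, read 9.60, 9.48 and 9.53 in control and 9.29, 9.34 and 9.26 in the arrays labelled SCGB3A1. Every control lay above every array of the other group, and the difference was -0.24 ± 0.072 (SE; limma, adjusted p = 0.717, 95% interval -0.39 to -0.080). It kept an unadjusted limma p under 0.05 whichever array was left out, with -0.26 to -0.20 as the range. DKK3, a divergent member of the family, read 12.70, 12.77 and 12.71 in control and 12.53, 12.64 and 12.80 in the other group, whose replicates spread on both sides of the controls (-0.073 ± 0.082 SE). Of 6 DKK3 probe sets 5 were negative. SFRP2 read 8.77, 9.11 and 8.71 in control and 8.65, 8.82 and 8.66 in the arrays labelled SCGB3A1, a difference of -0.15 ± 0.10 (SE) that was -0.033 without control replicate 2.

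Among the 41 members with a promoter known here, DKK1 was the only one with the core sequence of a TCF or LEF site in the 250 bases before its annotated start. This core, CTTTGA searched on both strands, was in 1 of 45 promoters known here for 41 members (2.22%) and in 11.2% of all 35116 promoters of RefSeq (GRCh38.p14). The DKK1 promoter is shown because DKK1 is both an inhibitor and a known target of the pathway. It lies at chr10:52314031-52314280 on the plus strand, with the matches in capitals at positions -149 to -144 (the opposite strand) and -95 to -90 from the start. A match describes the letters of this window and no binding was measured.
DKK1: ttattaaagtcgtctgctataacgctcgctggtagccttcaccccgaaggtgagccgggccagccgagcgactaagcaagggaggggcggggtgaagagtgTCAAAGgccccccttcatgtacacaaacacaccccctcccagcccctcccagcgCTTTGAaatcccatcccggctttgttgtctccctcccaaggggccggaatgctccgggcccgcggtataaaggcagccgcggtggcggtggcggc

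LGR4 and LGR5 are receptors for R-spondins, which strengthen Wnt signals, and RNF43 is a membrane ubiquitin ligase that removes Frizzled receptors. LGR4 read 9.09, 9.73 and 9.25 in control and 9.46, 9.27 and 9.58 in the arrays labelled SCGB3A1. The groups overlapped, control replicate 2 held the highest value, and the difference of 0.080 ± 0.14 (SE) was among the least precise of all members. It was 0.27 without that control and -0.052 without control replicate 1, and the 1 probe set not open to cross-hybridization gave -0.14. LGR5, a stem cell marker of the gut and other epithelia, was dim at 6.49, 6.60 and 6.52 in control and 6.57, 6.70 and 6.50 in the other group (0.054 ± 0.078 SE). RNF43 read 7.62, 7.59 and 7.55 against 7.56, 7.58 and 7.63, the same mean of 7.59 in both groups, with a 95% interval of -0.15 to 0.15.

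AXIN2, a scaffold of the destruction complex that is widely used as a readout of beta-catenin activity, read 8.37, 8.23 and 8.32 in control and 8.36, 8.36 and 8.62 in the arrays labelled SCGB3A1. The difference of 0.14 ± 0.087 (SE; limma, adjusted p = 0.849) came mostly from replicate 3, and without it was 0.057. The 4 AXIN2 probe sets ran from -0.10 to 0.14, 2 of each sign. LEF1, a DNA-binding partner of beta-catenin, read 8.55, 8.72 and 8.41 against 8.57, 8.56 and 8.59, with a difference of 0.011 ± 0.085 (SE).

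All 5 Notch ligands had a positive log2 fold change, from 0.009 to 0.28, and 1 of them had groups that did not overlap. JAG2, a membrane ligand of the Jagged type, read 7.79, 7.67 and 7.84 in control and 8.08, 7.95 and 8.10 in the arrays labelled SCGB3A1. Each array labelled SCGB3A1 lay above every control, and the difference was 0.28 ± 0.078 (SE), or 1.21-fold (limma, adjusted p = 0.705, 95% interval 0.11 to 0.45). A second JAG2 probe set read 7.43, 7.47 and 7.44 against 7.60, 7.56 and 7.64, again without overlap, for a smaller difference of 0.15 ± 0.069 (SE). Leaving out any 1 array kept JAG2 between 0.23 and 0.32, under an unadjusted limma p of 0.05 each time.

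JAG1, the other Jagged ligand, read 11.23, 11.32 and 11.24 in control and 11.26, 11.38 and 11.37 in the arrays labelled SCGB3A1. The groups overlapped and the difference was 0.073 ± 0.073 (SE; limma, adjusted p = 0.905). All 6 JAG1 probe sets were positive, from 0.016 to 0.16, and 1 of them, at 11.06, 11.11 and 11.08 in control and 11.25, 11.17 and 11.30 in the other group, did not overlap. DLL1, a Delta ligand, read 7.95, 7.77 and 8.00 against 8.08, 7.86 and 8.19 (0.14 ± 0.096 SE; limma, adjusted p = 0.861), while its second, dim probe set gave -0.095 ± 0.17 (SE). DLL3 and DLL4 gave 0.095 ± 0.078 and 0.009 ± 0.075 (SE).

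The 4 Notch receptors were split, 2 positive and 2 negative, from -0.11 to 0.14. NOTCH3 read 8.64, 8.58 and 8.59 in control and 8.76, 8.78 and 8.67 in the arrays labelled SCGB3A1, without overlap, for a difference of 0.14 ± 0.071 (SE; limma, adjusted p = 0.823). A second NOTCH3 probe set gave -0.002 ± 0.098 (SE). NOTCH2 read 11.28, 11.27 and 11.17 in control and 11.19, 11.07 and 11.13 in the other group, overlapping through 1 array, for -0.11 ± 0.073 (SE; limma, adjusted p = 0.861). The 4 NOTCH2 probe sets ran from -0.15 to 0.15, and the gene has near-identical NOTCH2NL copies, so its reading is uncertain. NOTCH1 read 8.75, 8.73 and 8.80 against 8.70, 8.82 and 8.83 (0.024 ± 0.073 SE), with overlapping groups.

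The HES and HEY repressors include the best known direct targets of Notch, but not all 9 are taken as such here. Of 9 measured, 7 had a positive and 2 a negative log2 fold change (median 0.072). Wholly above control lay 4 and wholly below 1, where 7.09% and 5.24% of all genes did so. These are small counts from which nothing is read. HEYL read 7.27, 7.31 and 7.38 in control and 7.43, 7.62 and 7.69 in the arrays labelled SCGB3A1. The gap between the groups was small, since replicate 1 labelled SCGB3A1 lay close to the highest control, and the difference was 0.26 ± 0.082 (SE; limma, adjusted p = 0.725, 95% interval 0.078 to 0.44). Its other probe set, which was dim, gave -0.040 ± 0.15 (SE) with overlapping groups.

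HEY1 read 8.26, 8.12 and 8.17 in control and 8.37, 8.35 and 8.29 in the arrays labelled SCGB3A1, a difference of 0.16 ± 0.073 (SE; limma, adjusted p = 0.810). The second HEY1 probe set gave 0.27 ± 0.099 (SE) but overlapped. HES1, the best studied target, read 10.37, 10.56 and 10.59 against 10.64, 10.69 and 10.60 (0.14 ± 0.080 SE; limma, adjusted p = 0.842), and replicate 3 labelled SCGB3A1 lay only just above the highest control. Of 3 HES1 probe sets 2 were positive and the third, which was dim, was negative (-0.069). HES4 read 8.20, 8.22 and 8.22 in control and 8.29, 8.37 and 8.36 in the other group, with little spread among controls, for 0.125 ± 0.069 (SE; limma, adjusted p = 0.831). The 1 probe set of HES4 is of a kind open to cross-hybridization, so no other reading of it was available.

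HES7, the repressor whose oscillation times the formation of somites in the embryo, went the other way. It read 7.29, 7.32 and 7.41 in control and 7.04, 7.05 and 7.08 in the arrays labelled SCGB3A1, with the groups well separated. The difference of -0.29 ± 0.071 (SE; limma, adjusted p = 0.555, 95% interval -0.44 to -0.13), or 0.82-fold, had the smallest p-value of the 59 members. It was -0.31 to -0.25 with each array left out and stayed under an unadjusted limma p of 0.05. HES7 has 1 probe set, so no second reading of it was available. Its mean over the 6 arrays was 7.20, little above the median of all probe sets (6.91). Whether this signal exceeds background was not tested. HEY2, the other negative repressor, was dim and gave -0.125 ± 0.085 (SE). HES2, HES5 and HES6 gave 0.072 ± 0.091, 0.027 ± 0.071 and 0.034 ± 0.093 (SE).

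**Figure D2:**
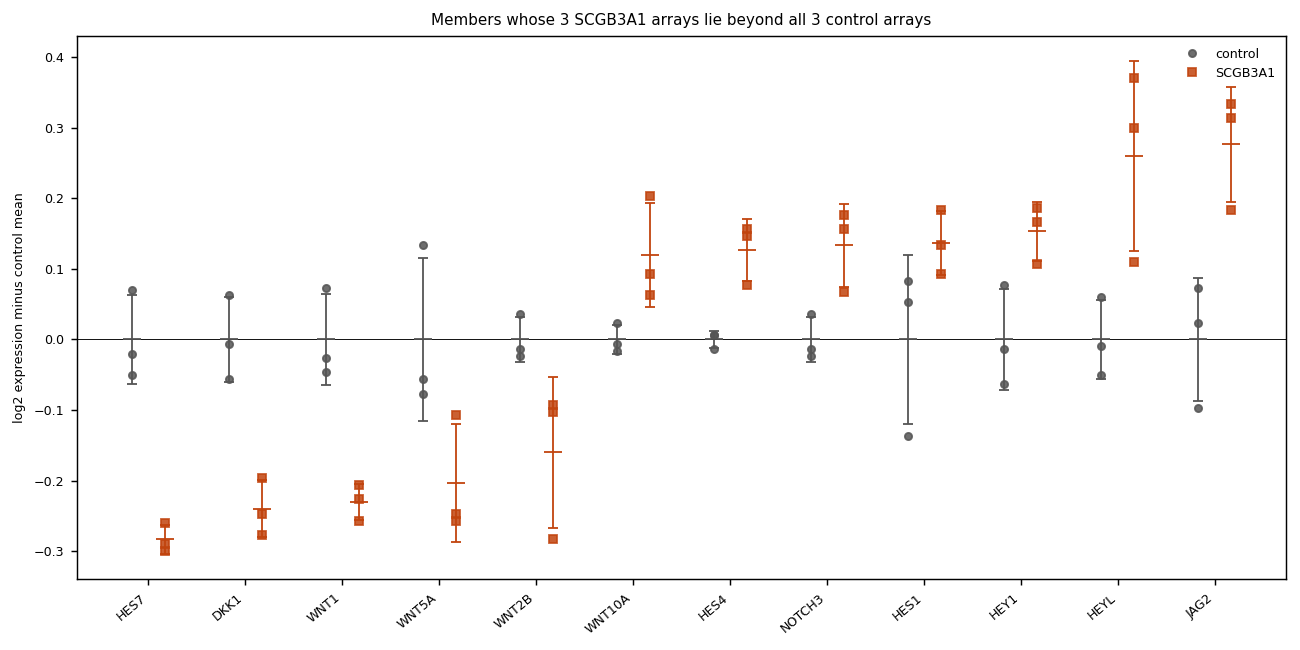
Log2 expression of each array minus the control mean of that gene, for the 12 members whose groups did not overlap (grey circles control, orange squares SCGB3A1, n = 3 each). Horizontal ticks are group means and bars 1 SD. Gaps between groups are widest for HES7 and narrowest for HES1 and WNT5A, where single arrays almost meet.

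The core sequence bound by RBPJ, TGGGAA searched on both strands, was found in the 250 bases before the start in 5 of 15 promoters of Notch members (33.3%), in 6 of 30 of Wnt members and in 20.8% of all promoters. The 5 were those of HES1, HES4, HES5, HEY2 and HEYL. Of these only HEY2 had a negative log2 fold change (-0.125), and its second probe set, also dim, gave 0.094. JAG2, NOTCH3 and HES7 did not hold these letters in this window. The letters CACNAG, an N-box bound by HES proteins, were in 4 of 15 Notch promoters (26.7%) and 32.0% of all. The promoters of HES1, HES4 and HEYL, repressors whose arrays labelled SCGB3A1 lay wholly above control, are shown with the RBPJ core of either strand in capitals. HEY1 also lay wholly above control, but its promoter was not among those known here. HES1 lies at chr3:194135898-194136147 on the plus strand, HES4 at chr1:1000098-1000347 and HEYL at chr1:39639644-39639893, both on the minus strand and printed in the direction of the gene (RefSeq, GRCh38.p14). The HES1 matches stand at -84 to -79 and -70 to -65 from the start, that of HES4 at -76 to -71, and those of HEYL at -178 to -173 (the opposite strand) and -99 to -94.
HES1: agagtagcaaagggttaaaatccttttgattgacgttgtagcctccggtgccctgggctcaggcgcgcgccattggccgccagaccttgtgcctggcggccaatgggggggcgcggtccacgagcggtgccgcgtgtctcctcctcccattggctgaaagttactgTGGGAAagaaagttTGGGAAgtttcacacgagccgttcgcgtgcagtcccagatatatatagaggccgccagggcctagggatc
HES4: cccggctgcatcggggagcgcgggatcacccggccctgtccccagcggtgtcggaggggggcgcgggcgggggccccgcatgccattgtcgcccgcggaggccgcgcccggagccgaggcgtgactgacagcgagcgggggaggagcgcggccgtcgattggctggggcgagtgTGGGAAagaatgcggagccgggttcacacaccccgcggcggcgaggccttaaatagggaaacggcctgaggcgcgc
HEYL: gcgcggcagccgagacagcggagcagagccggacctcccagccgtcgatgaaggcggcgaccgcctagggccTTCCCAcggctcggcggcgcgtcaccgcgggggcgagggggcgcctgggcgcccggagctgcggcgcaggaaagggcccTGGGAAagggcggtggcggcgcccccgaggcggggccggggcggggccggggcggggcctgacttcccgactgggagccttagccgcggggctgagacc

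Several members had more than 1 probe set, which gives a second reading from the same RNA. Of 39 such members, 24 had probe sets of both signs and 15 had a single sign. All probe sets of JAG1, JAG2 and HEY1 were positive and both of WNT5A and of FZD7 negative, whereas those of HEYL, NOTCH3, DLL1, AXIN2, LEF1 and LGR4 held both signs. Of 128 probe sets in all, 77 were positive and 51 negative, and 7.81% had an unadjusted limma p under 0.05, against 6.20% of all 54613 probe sets.

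**Figure D3:**
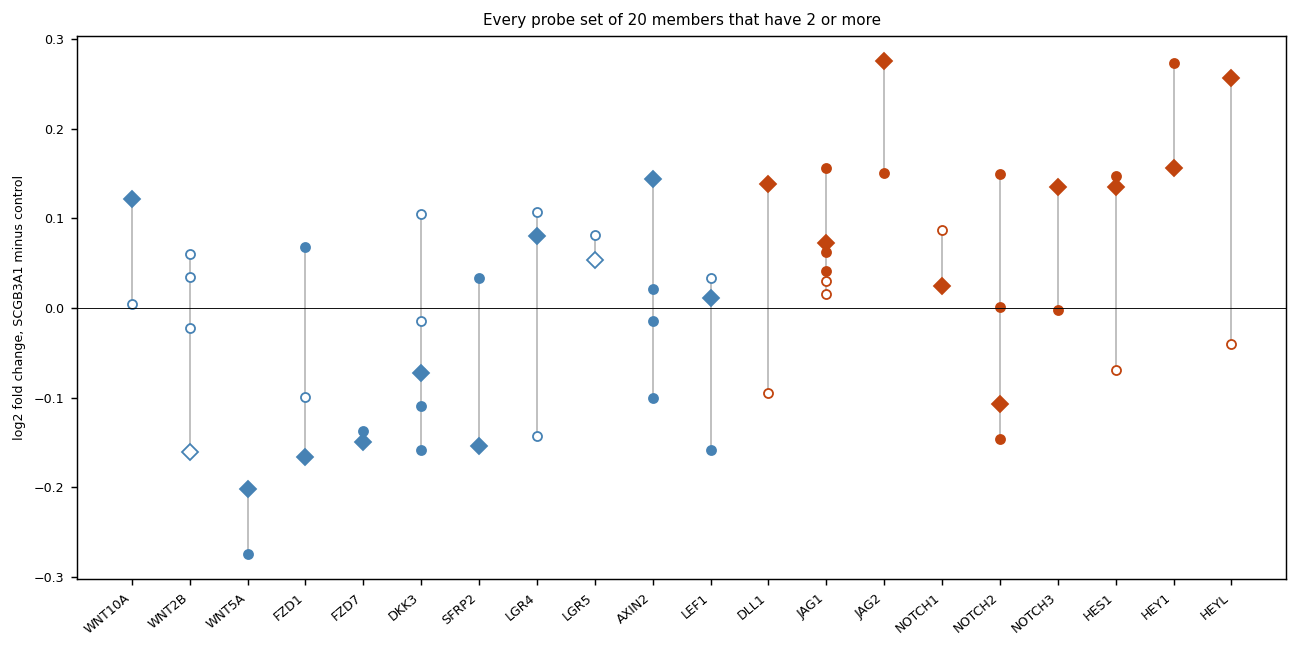
Log2 fold change (arrays labelled SCGB3A1 minus control) of every probe set of 20 members that have 2 or more, Wnt in blue and Notch in orange. Diamonds are the probe set given for the gene, circles its others, and open symbols have a mean at or below the median of all probe sets (6.91). All 6 JAG1 probe sets lie above 0, from 0.016 to 0.16, and the 4 of NOTCH2 span -0.15 to 0.15.

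Level bore on what could be read. A mean above the median of all probe sets was found for 42 of the 59 members, 26 of 41 on the Wnt side and 16 of 18 on the Notch side, and for 8 of the 17 Wnt ligands. No detection calls were used here, so a dim reading is not called absent. Among the 42 brighter members 11.9% had an unadjusted limma p under 0.05, against 8.11% of all genes at such levels.

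**Figure D4:**
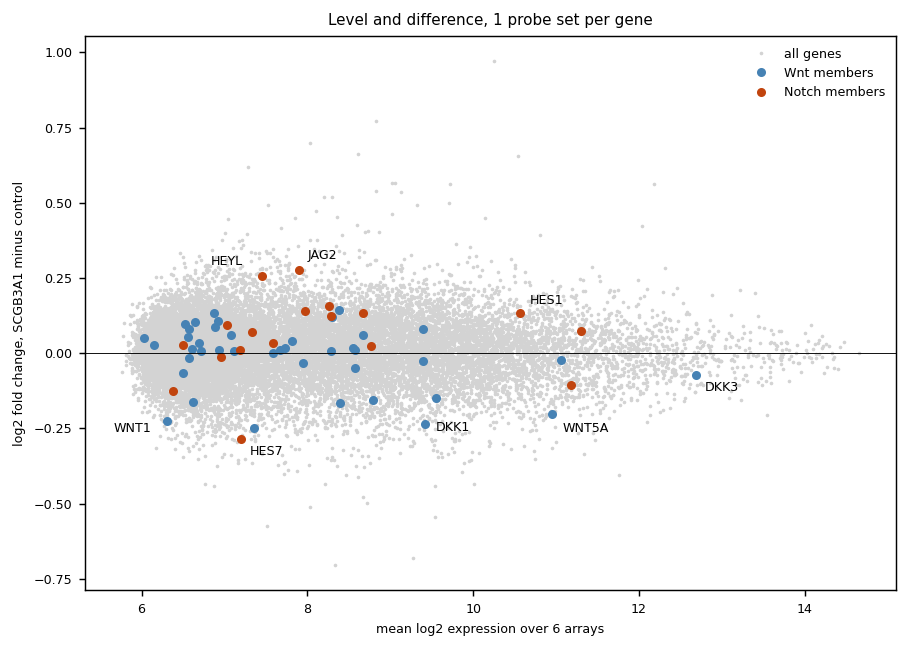
Mean log2 expression over the 6 arrays against log2 fold change (arrays labelled SCGB3A1 minus control), 1 probe set per gene. Grey dots are all 19775 genes, blue dots the 41 Wnt and orange dots the 18 Notch members. Members lie between -0.29 and 0.28, within the cloud of all genes, which reaches -0.71 and 0.97.

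Direction was fragile for much of the set. With each array left out in turn, 37 of 59 members kept the sign of their log2 fold change and 22 did not, and the lowest adjusted p of any member in these fits was 0.402 (limma). JAG2, HEYL, HES7, DKK1 and WNT1 kept both their sign and an unadjusted limma p under 0.05 in all 6 of them. Each of these fits reuses arrays of the full fit, in which these genes already had such a p. They are therefore no separate evidence, and the same counts over all genes were not made. Control replicate 2, the array that stood apart, was the farthest from the median of the 6 arrays for 17 members (28.8%), close to its share of all genes (30.6%).

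The other genes of both pathways did not pass the test either. Of 134 listed, 128 were measured, 0 passed an adjusted p of 0.05 in limma, and 7.81% had an unadjusted p under 0.05, near the 6.82% of all genes, with 5 higher and 5 lower in the arrays labelled SCGB3A1 (median 0.013). On the Wnt side, beta-catenin itself (CTNNB1) read 12.25, 12.24 and 12.30 in control and 12.42, 12.45 and 12.26 in the other group, overlapping through replicate 3 (0.12 ± 0.077 SE; limma, adjusted p = 0.857). Of 18 feedback and target genes 9 were positive and 9 negative, and 3 had an unadjusted limma p under 0.05, all lower (16.7%, against 2.89% of all genes in that direction). These are small counts in a short list. Of the 3, APCDD1L, a relative of the Wnt inhibitor APCDD1, read 8.55, 8.55 and 8.40 against 8.19, 8.21 and 8.03 (-0.36 ± 0.080 SE; limma, adjusted p = 0.475), and PTCH1, better known as the Hedgehog receptor, read 8.18, 8.12 and 8.15 against 7.83, 7.87 and 7.87 (-0.29 ± 0.068 SE; limma, adjusted p = 0.501). TNFRSF19 gave -0.22 ± 0.10 (SE) with overlapping groups. ROR1, a receptor for WNT5A, read 8.61, 8.94 and 8.57 in control and 8.26, 8.40 and 8.50 in the arrays labelled SCGB3A1, wholly below control (-0.32 ± 0.10 SE; limma, adjusted p = 0.737). In its list of Wnt co-receptors and receptor turnover 5 of 8 genes were positive. There ROR2 and RYK gave 0.012 ± 0.091 and 0.029 ± 0.074 (SE), both with overlapping groups.

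On the Notch side, CNTN1, a neural adhesion protein described as an atypical Notch ligand, had the largest difference among these other genes. It read 7.28, 7.08 and 7.49 in control and 7.83, 7.65 and 7.85 in the arrays labelled SCGB3A1 (0.49 ± 0.10 SE; limma, adjusted p = 0.378). Of 16 genes for Notch glycosylation and trafficking 12 were positive (75.0%, against 54.3% of all genes). Of the 16, 3 (DTX1, DTX3 and DTX3L) had an unadjusted limma p under 0.05, all higher (18.8%, against 3.93% of all genes in that direction). These too are small counts in a short list, and the 3 genes all belong to the Deltex ubiquitin ligases. The other measured Deltex members DTX2 and DTX4 gave 0.004 ± 0.086 and 0.11 ± 0.12 (SE). DTX1, which was dim, read 6.77, 6.60 and 6.68 in control and 6.90, 7.08 and 6.93 in the other group (0.29 ± 0.080 SE; limma, adjusted p = 0.705). DTX3 read 8.81, 9.00 and 8.96 against 9.20, 9.16 and 9.27 (0.29 ± 0.077 SE; limma, adjusted p = 0.705). PSENEN, a subunit of the gamma-secretase that cuts Notch, read 9.19, 9.10 and 9.13 in control and 9.36, 9.36 and 9.20 in the other group (0.16 ± 0.075 SE). In the nuclear complex 7 of 10 genes were negative and 30.0% positive, against 54.3% positive of all genes. This is a small count from which nothing is read. EP300, a histone acetyltransferase of that complex, gave -0.38 ± 0.14 (SE; limma, adjusted p = 0.782) with overlapping groups. RBPJ itself gave -0.059 ± 0.074 (SE).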

How the data were processed

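Total RNA (100 ng per sample) of 6 SUM159 oncosphere samples, 3 per group, was hybridised to Affymetrix Human Genome U133 Plus arrays, 1 sample per array. Chipster was used by the authors for robust multiarray average (RMA) normalization, which gave the deposited log2 values, from 5.66 to 14.7. RMA gives all arrays 1 distribution, so a change in total RNA cannot be seen, and it compresses differences of dim genes. For arrays, their number limits the precision.

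Of 54675 probe sets 62 controls were set aside. Gene names came from the platform annotation of GEO, in which 41091 tested probe sets had 1 symbol, 1801 several and 11721 none, and those without a single symbol stayed unnamed. All 54613 were fitted with limma (version 3.58.1 in R 4.3.3; lmFit and eBayes, two-sided), following the study's own 2-group empirical Bayes design, with Benjamini-Hochberg adjustment over all of them. The script was tested on simulated data.

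The members and gene lists were chosen with earlier results of these data known, so no list was tested and medians are descriptions. Values were given for SCGB3A1, for the 2 members per role with the highest mean and the 2 with the smallest p, for members with an unadjusted p under 0.05 or without overlap, and for up to 2 other pathway genes per list, those with the smallest p. WNT9A, CTNNB1, RBPJ, ROR2, RYK and TNFRSF19 were added after their values were seen. So were the Deltex genes beyond the 2 of smallest p and the remaining members given with a fold change and SE. Promoters came from RefSeq (GRCh38.p14), for 41 of 59 members. Alternatives were centring, quantile normalization, array weights, an intensity trend, leaving out each array, a replicate block, averaging the probe sets of a gene, adjustment over genes, removal of dim or of cross-hybridizing probe sets, and the study's signature criteria.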

Additional observations from a re-analysis of the deposited data

How the results depend on the processing

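No member passed an adjusted p of 0.05 in limma under any alternative, the study's signature criteria included, and 5 to 8 members had an unadjusted p under 0.05. With the replicate number as a replicate block, 0 members passed the adjusted p and 6 the unadjusted p. The numbers do not pair the arrays: deviations of same-numbered arrays from their group means correlated at 0.1455, -0.1445 and -0.0871. Over 28 genes, 394 of 407 values under alternatives kept their direction and their side of the threshold and 13 turned sign, and the lowest adjusted p was 0.329.

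The median of the Notch members was 0.0406 when all probe sets of each gene were averaged, 0.0275 over the 11 members left without cross-hybridizing probe sets, and 0.0573 to 0.0909 with each array left out (0.0909 without SCGB3A1 replicate 1). Without cross-hybridizing probe sets LGR4 was -0.1434 and HES1 -0.0690. RNF43 was -0.0033 with array weights, and LEF1 -0.0379 when its probe sets were averaged. With each array left out the log2 fold change ran from -0.0224 to 0.0646 for WNT11, -0.0716 to 0.0443 for FZD6, -0.0522 to 0.266 for LGR4, -0.0012 to 0.101 for LGR5, -0.0199 to 0.0165 for RNF43 and -0.0620 to 0.0921 for LEF1. Without cross-hybridizing probe sets, LGR4 and HES1 rest on another, dimmer probe set, and for the other sign changes the cause was not tested. With 3 arrays per group, every member's 95% interval reached at least 0.15 to either side of its estimate, and the signal of dim probe sets over background was not analysed here.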
